A study of Mus musculus with 10 samples.

Results

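The genes described here encode the proteins of the cytosolic ribosome. They were chosen by name among the protein-coding rows of the count table: symbols that start with Rpl or Rps and a digit, with Rplp0, Rplp1, Rplp2 and Rpsa. S6 kinase genes, and names that end in -ps or in the letter l, were left out. The rule found 81 of 21556 counted genes and all 81 passed the filter on low counts, which kept 13920 genes in all. Of these, 46 belong to the large subunit and 31 to the small subunit. The remaining 4 match by name only and are not core subunits: Rps19bp1 encodes a protein that binds Rps19, Rpl7l1 and Rpl22l1 are paralogs, and Rps27rt is a retrotransposed copy of Rps27. The samples are regulatory T cells (Tregs, CD4+ T cells that restrain immune responses) that carry a red fluorescent reporter, used to sort them. Their mice were 10 weeks old and bore a lymphangiogenic melanoma line.

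The tumor Tregs of MHCIIdeltaProx-1 mice (2 libraries) and of MHCIIfl/fl mice (3 libraries) were set against lymph node (LN) Tregs of MHCIIdeltaProx-1 mice (2 libraries) and of MHCIIfl/fl mice (3 libraries). In MHCIIdeltaProx-1 mice, called MHCII-deleted below, Cre driven by Prox1, a transcription factor of lymphatic endothelial cells, deletes floxed MHC class II. The MHCIIfl/fl mice carry the floxed genes without Cre and are called control below, and all groups received the melanoma. MHCII-deleted tumor, control tumor, MHCII-deleted LN and control LN stand for the Tregs sorted from that tissue of that genotype. Whether each library came from a separate animal or from a pool is not given in the sources used here, so p-values measure the spread between these libraries. The sorting text describes tumors only, and how the LN cells were prepared is not given in the sources used here.

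A ribosome has a small subunit that reads the mRNA and a large subunit that joins amino acids, and each core protein is present once per ribosome, apart from the stalk proteins. Ribosomal protein mRNAs are among the most abundant in most cells. Many begin with a terminal oligopyrimidine (TOP) tract, a C followed by a run of C and T at the start of the transcript, through which mTORC1 and the RNA-binding protein Larp1 control their translation. Activation of T cells raises ribosome production through mTORC1 and Myc. Mammalian genomes also hold very many processed pseudogenes of ribosomal protein genes, which resemble the mRNAs closely.

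Because many ribosomal protein mRNAs are known to begin with a TOP tract, the transcript starts of genes whose levels are reported below are shown. Each line holds 30 bases from 20 before to 10 after the RefSeq start (GRCm38.p6), 5′ to 3′ on the strand of the gene, and capitals mark the longest C followed by at least 5 C or T, called a pyrimidine run here, anywhere in these bases. With TMM scaling, explained below, the first 7 genes were lower in tumor than in LN in both genotypes, though scaling to T cell genes changed this. The first 4 of them hold a pyrimidine run in this window and the other 3 do not. Where a gene has more than 1 RefSeq start, the start with the longest run was taken. In Rpl4 and Rpl13 the run lies wholly before the RefSeq start, so it is not shown to be at the start of the transcript. The last 3 genes were called higher in at least 1 comparison.
Rps18, chr17:33955656-33955685, minus strand: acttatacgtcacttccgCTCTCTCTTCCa
Rps9, chr7:3704021-3704050, plus strand: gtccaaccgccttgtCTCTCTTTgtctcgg
Rpl4, chr9:64173367-64173396, plus strand: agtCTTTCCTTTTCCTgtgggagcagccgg
Rpl13, chr8:123102330-123102359, plus strand: gtcaCTTCCCTTTCgcctgattttgattgg
Rps19, chr7:24884572-24884601, plus strand: agcactccgaaatctcgcgagactcgacgc
Rps3a1, chr3:86142659-86142688, minus strand: gattcttaaagccggaagggcgaaagagca
Rps7, chr12:28635944-28635973, minus strand: gaagagcttccggtttccacccacctactt
Rpl27, chr11:101442225-101442254, plus strand: ccggaacgctctgttcctgtctgctgctcg
Rps19bp1, chr15:80264297-80264326, minus strand: accgccagggcggaagtagctcgccgcgtg
Rpl7l1, chr17:46782647-46782676, minus strand: gcccggtgaggctgcgcaagcgcagtagct

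Of the 81 genes, 61 were found in the RefSeq promoter table, and 37 of those (60.7%) hold a pyrimidine run at any place in the window on the transcribed strand, against 26.3% of all 27025 symbols in that table. Where a symbol has several starts there, the start with the longest run was counted, so symbols with more starts had more windows to match. Of the 20 genes with an entry that were lower in tumor than in LN in MHCII-deleted mice, 12 (60%) hold it, against 25 of 39 (64.1%) with an entry that did not pass the test there (lower as measured with TMM scaling, not with scaling to T cell genes). Rps6, the substrate of S6 kinase, holds a run of 10 bases, and Rplp2, a stalk protein, one of 9 bases. A gene without a match lacks these letters in this window.

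The ribosomal protein genes made up a small part of each library. Their summed counts were 0.55 to 1.13% of all counts in the 10 libraries, whose totals ran from 28539329 to 35736175. The reads were 50 bases long, and how the counting treated reads that map to several places is not given in the sources used here. Of all 50-base windows in 1 transcript per gene, the shortest annotated with the main coding sequence, a median of 38.8% occur in no transcript of another gene, pseudogenes included. At least 1 such window was shared with a pseudogene for 79 of the 81 genes, and Rps19bp1 shares none. The share of own windows was under 20% for 19 genes and at least 50% for 28. Across the 81 genes, the level per kilobase rose with the share of own windows (Spearman's rho 0.56, a description across genes, which are not independent replicates). Levels of genes with few own windows are therefore uncertain, and an order of levels between genes is given with that limit.

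Rps27, a small subunit protein, shows the case at its clearest. Its coding sequence has 255 bases including the stop codon, and that of the retrotransposed copy Rps27rt has the same bases, with 0 differences, so that all 206 of its 50-base windows are identical. The parent gene lies at chr3:90212522-90213651 and the copy at chr9:114982366-114982739 (GRCm38, minus strand for both).
Rps27 and Rps27rt, coding: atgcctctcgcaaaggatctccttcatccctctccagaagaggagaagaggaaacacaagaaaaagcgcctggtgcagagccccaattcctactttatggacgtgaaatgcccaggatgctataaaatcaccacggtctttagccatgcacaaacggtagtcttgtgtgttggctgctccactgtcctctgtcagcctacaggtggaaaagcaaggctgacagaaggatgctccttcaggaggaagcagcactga
CPM of Rps27 (counts scaled to library size and normalised by TMM, the trimmed mean of M values) were 1.61 and 2.52 in MHCII-deleted tumor, 3.42, 3.07 and 3.48 in control tumor, 5.06 and 4.44 in MHCII-deleted LN, and 3.73, 4.88 and 3.27 in control LN. Rps27rt was counted at 2.86 to 5.77 CPM over the 10 libraries. A copy with no introns of its own was thus listed as high as its parent, and neither gene passed the test in any comparison. Their reads cannot be told apart within the coding sequence.

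**Figure D1:**
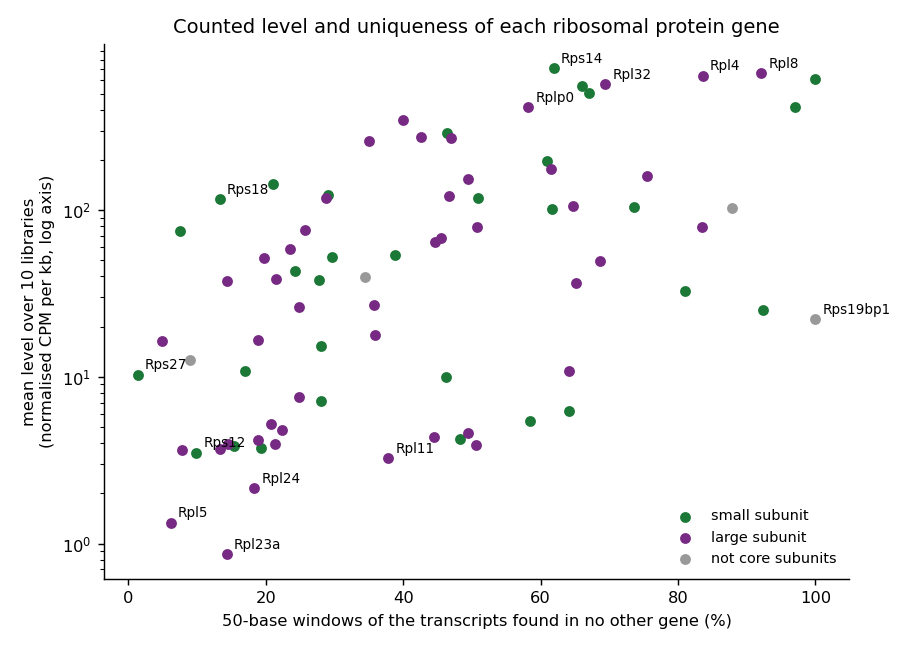
Mean normalised CPM per kilobase of transcript over 10 libraries (log axis) against the percentage of 50-base transcript windows found in no transcript of another gene, 1 point per gene. The highest genes, such as Rpl8 and Rpl4, lie to the right and the lowest, Rpl23a and Rpl5, to the left (Spearman's rho 0.56 over 81 genes).

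Among the highest genes per kilobase were Rps14, Rpl8, Rpl4 and Rpl32. Rps14, a small subunit protein lost in the 5q- syndrome of humans, averaged 709 CPM per kilobase over the 10 libraries. Rpl8, which lies near the peptidyl transferase centre, averaged 661, Rpl4, which lines the exit tunnel, 641 and Rpl32 of the large subunit 569 CPM per kilobase. At the other end, Rpl23a, which sits at the end of the exit tunnel, averaged 0.86 CPM per kilobase, Rpl5 1.33, Rpl24 2.15, Rpl11 3.25 and Rps12 3.5. Rpl5 and Rpl11 are the proteins that bind Mdm2 together with 5S rRNA. The lengths are those of the shortest annotated transcript with the main coding sequence, which is long for Rpl5 (2045 bases) and for Rps20 (3706 bases), and a level per kilobase is divided by that length. The counted mRNA levels of genes for core proteins of 1 particle thus lay far apart, and protein was not measured. The own windows were 6.16% for Rpl5, 14.3% for Rpl23a and 92.1% for Rpl8. The 5 genes with the highest CPM held 41.7% of the summed CPM, 32 genes were at 50 CPM or more, and 25 were under 10 CPM.

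Summed over the 81 genes, the level was lowest in tumor Tregs of MHCII-deleted mice. It was 6490 and 5400 CPM there, against 7950, 6230 and 7520 CPM in control tumor. LN Tregs of MHCII-deleted mice had 9920 and 8670 CPM, against 8010, 9700 and 10800 CPM in control LN. The means were 5940 ± 776 CPM (SD, n = 2), 7230 ± 898 (SD, n = 3), 9300 ± 882 (SD, n = 2) and 9500 ± 1390 CPM (SD, n = 3), in that order. Every tumor library lay below every LN library, but the highest tumor control library (7950) and the lowest LN control library (8010) nearly met. The tumor libraries of the genotypes overlapped (6490 in MHCII-deleted, 6230 in control), as did the LN libraries. Per the share of raw counts, the order was the same: 0.609%, 0.677%, 0.941% and 0.992%. Genes with at least 50% own windows summed to 4360 ± 524, 5300 ± 659, 6890 ± 683 and 7040 ± 1000 CPM, and genes with fewer to 1590 ± 253, 1930 ± 244, 2410 ± 198 and 2460 ± 392 CPM, in the same order of groups.

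The balance between small and large subunit mRNAs also varied between groups. The ratio of summed CPM, small over large subunit genes, was 0.742 and 0.748 in MHCII-deleted tumor and 0.87, 0.81 and 0.807 in control tumor. In LN it was 0.844 and 0.852 in MHCII-deleted mice and 0.851, 0.884 and 0.874 in control mice. The 2 MHCII-deleted tumor libraries lay below all 8 others, and the other 3 groups overlapped pairwise. A ratio within a library does not depend on how libraries are scaled, and it was given no test.

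What else the libraries held moved with these groups. The 15 melanoma markers summed to 19400 and 23700 CPM in MHCII-deleted tumor and to 4930 to 9580 CPM in control tumor, against 30.9 to 38.2 CPM in MHCII-deleted LN and 21.5 to 30.6 CPM in control LN. The 24 pan-T cell markers summed to 9450 and 11100 CPM in MHCII-deleted tumor, against 21600 to 22400 CPM in control tumor, 23700 and 23800 CPM in MHCII-deleted LN and 23600 to 24700 CPM in control LN. Foxp3, the defining factor of Tregs, was at 346 ± 5.07, 738 ± 85.9, 617 ± 52.4 and 687 ± 53.4 CPM in the same order. Stromal and endothelial markers summed to 881 and 1360 CPM in MHCII-deleted tumor and to 793 to 4960 CPM in control tumor, and to 183 to 219 CPM in all LN libraries, nearly all of it Pecam1. Tyr, the pigment enzyme tyrosinase, was at 142 and 180 CPM in MHCII-deleted tumor and at 32.4 to 72.5 CPM in control tumor, against 0 to 0.0643 CPM in the LN libraries. All cells in a library contribute to the ribosomal protein counts, and the part of melanoma RNA in the results below was not tested. Fewer cells of a type and less RNA per cell cannot be told apart in these bulk libraries.

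**Figure D2:**
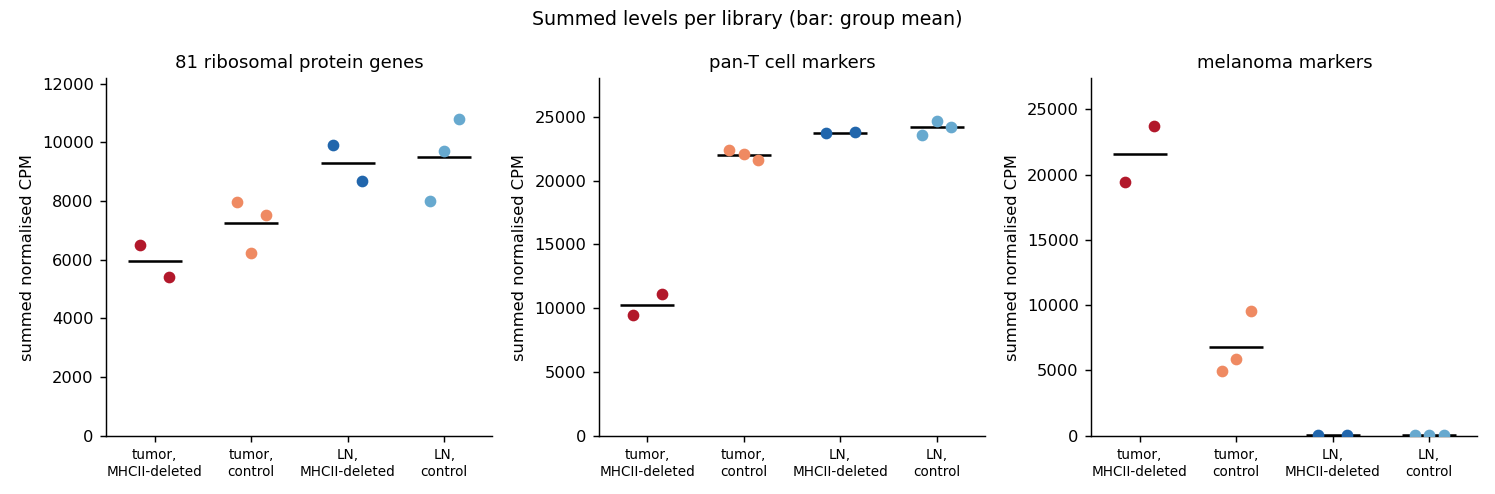
Summed normalised CPM per library of the 81 ribosomal protein genes, of 24 pan-T cell markers and of 15 melanoma markers, with 1 point per library and a bar at the group mean. Tumor libraries lie below LN libraries for the ribosomal protein genes on this scale, pan-T cell markers are lowest in MHCII-deleted tumor (9450 and 11100), and melanoma markers are highest there (19400 and 23700).

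The ribosomal protein genes of 1 library tended to move together. In MHCII-deleted tumor, 74 of 81 genes were lower in replicate 2 than in replicate 1, and in control tumor 70 of 81 were lowest in replicate 2. In MHCII-deleted LN, 65 of 81 were lower in replicate 2, and in control LN 67 of 81 were lowest in replicate 1. Over all tested genes, the same libraries were lowest for 51.5%, 31.1%, 48.8% and 35% of genes. The median departure from the group mean of log2 CPM was -0.16 in replicate 2 of MHCII-deleted tumor, -0.23 in replicate 2 of control tumor, -0.09 in replicate 2 of MHCII-deleted LN and -0.24 in replicate 1 of control LN. Other genes with transcripts under 1000 bases departed by -0.12, -0.11, 0 and -0.09 in these libraries, and genes with longer transcripts by -0.01, 0.03, -0.01 and 0.01. In these libraries, shorter genes departed in the same direction as the ribosomal protein genes, except in MHCII-deleted LN, where they stood at 0. The part of transcript length in the replicate spread was not tested. Genes of the ribosome at 50 CPM or more had a median coefficient of variation between replicates of 16% in MHCII-deleted tumor, 14.1% in control tumor, 9.86% in MHCII-deleted LN and 16.2% in control LN, against 11%, 11.2%, 5.82% and 7.59% over all tested genes at that level.

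**Figure D3:**
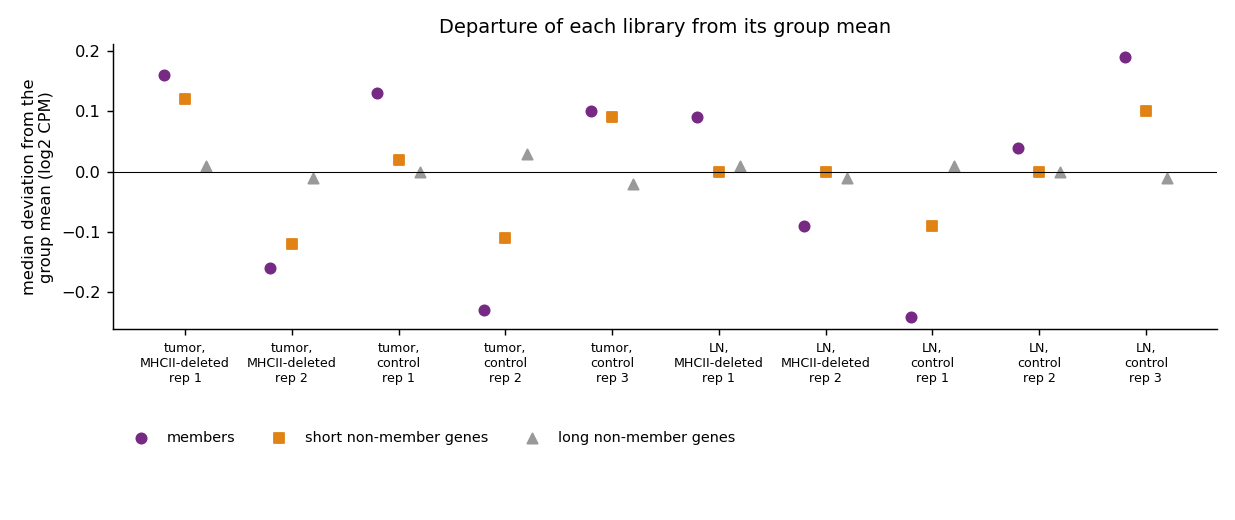
Median departure of log2 CPM from the group mean, per library, for the ribosomal protein genes (members), for other genes with transcripts under 1000 bases (short) and for other genes with longer transcripts (long). The ribosomal protein genes lie between -0.24 and 0.19, shorter genes between -0.12 and 0.12, and longer genes within 0.03 of 0.

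The tissue comparison in MHCII-deleted mice asks how tumor Tregs differ from LN Tregs when lymphatic MHCII is absent. With TMM scaling, 28 ribosomal protein genes were called lower and 2 higher in tumor, where a call is an adjusted p under 0.05 (edgeR's quasi-likelihood test over all 13920 genes, Benjamini-Hochberg), while scaling to the pan-T cell genes gave 44 called higher and 0 lower. The background in the TMM fit was 20.1% of all tested genes called lower and 24.3% called higher. In the fit with pan-T cell scaling, 2.28% of all tested genes were called lower and 64.8% higher. Small subunit genes were called lower in 18 of 31 cases (median log2 fold change -0.73), and large subunit genes in 10 of 46 (median -0.32), with 1 higher. All 81 had a median of -0.47, against 0.07 over all tested genes. At 50 CPM or more, the median was -0.19 over all tested genes, with 1599 of 4597 called lower. Other genes with transcripts under 1000 bases had a median of 0.13 at that level, with 75 of 330 lower. Ribosomal protein genes at that level had a median of -0.72, with 21 of 32 lower. The pan-T cell scaling shifted the median of all tested genes to 1.28 and that of the ribosomal protein genes to 0.76. Relative to the median of all genes, the ribosomal protein genes lay at -0.54 with TMM and at -0.52 with the pan-T cell scaling. A change of scaling moves all genes by nearly the same amount, so these values could hardly differ. The count of lower calls fell to 13 without replicate 1 of MHCII-deleted LN and to 16 without replicate 2 of MHCII-deleted tumor. The groups did not overlap for 60 of the 81 genes on the lower side (36.4% of all tested genes) and for 12 on the higher side (39.2%).

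Rps19, a small subunit protein mutated in human Diamond-Blackfan anaemia, had 115 and 94.6 CPM in tumor against 260 and 212 CPM in LN. Both tumor values lay far below either LN value, and its log2 fold change was -1.17 ± 0.2 (SE, adjusted p = 0.00113, edgeR). Rps18, of the small subunit head, had 40.3 and 32.1 CPM in tumor against 87.6 and 75.1 CPM in LN, a log2 fold change of -1.17 ± 0.21 (adjusted p = 0.0014, edgeR), but 13.3% own windows. Rps20, also of the head, had 59 and 53.8 CPM in tumor against 123 and 116 CPM in LN, a log2 fold change of -1.09 ± 0.21 (adjusted p = 0.00199, edgeR). The tumor and LN values of these genes lay far apart. Rps14 had 277 and 247 CPM in tumor against 505 and 465 CPM in LN (log2 fold change -0.89 ± 0.19, adjusted p = 0.00353, edgeR). Rpsa, a small subunit protein also known as a laminin receptor, had 11.1 and 10.2 CPM in tumor against 19.6 and 20.6 CPM in LN (log2 fold change -0.92 ± 0.23, adjusted p = 0.00894, edgeR). Rps28 had 8.47 and 6.44 CPM in tumor against 17.4 and 11.8 CPM in LN (log2 fold change -0.97 ± 0.32, adjusted p = 0.0305, edgeR). The call of Rpsa was lost without replicate 2 of MHCII-deleted LN, and that of Rps28 without replicate 1 of the same group or replicate 2 of MHCII-deleted tumor. With pan-T cell scaling none of these small subunit genes was called, and their log2 fold changes were between 0.06 and 0.34.

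Among large subunit genes, Rpl13a, which in human cells also serves in a complex that silences inflammatory mRNAs, had 182 and 138 CPM in tumor against 352 and 316 CPM in LN (log2 fold change -1.06 ± 0.18, adjusted p = 0.00114, edgeR). Rpl4 had 706 and 661 CPM in tumor against 1340 and 1160 CPM in LN (log2 fold change -0.87 ± 0.12, adjusted p = 0.000243, edgeR). For both genes the tumor and LN values were far apart, and Rpl13a stood at a log2 fold change of 0.17 with pan-T cell scaling. The stalk, which recruits elongation factors, was mixed. Rplp2 had 91.5 and 70.9 CPM in tumor against 134 and 121 CPM in LN (log2 fold change -0.65 ± 0.21, adjusted p = 0.0267, edgeR), a call lost without either LN library or without replicate 2 of the tumor libraries of these mice. Rplp0 had 546 and 426 CPM in tumor against 657 and 552 CPM in LN, and Rplp1 170 and 130 against 188 and 179 CPM. Neither passed the test (adjusted p = 0.163 and 0.298, edgeR), although the tumor values lay below the LN values for both. With pan-T cell scaling all 3 stalk genes were called higher in tumor, with log2 fold changes of 0.92 for Rplp0, 0.94 for Rplp1 and 0.58 for Rplp2 (adjusted p = 0.00263, 0.00643 and 0.0475, edgeR).

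The genes called higher in MHCII-deleted tumor were Rpl27 and Rps19bp1. Rpl27, a large subunit protein, had 16.9 and 15.7 CPM in tumor against 8.64 and 7.27 CPM in LN, a log2 fold change of 1.03 ± 0.29 (SE, adjusted p = 0.0159, edgeR). Rps19bp1, which is not part of the ribosome and is also known as a regulator of the deacetylase Sirt1, had 35.4 and 24.6 CPM in tumor against 16.4 and 14.5 CPM in LN (log2 fold change 0.96 ± 0.25, adjusted p = 0.0103, edgeR). The groups did not overlap for these genes. Without replicate 2 of LN or replicate 1 of MHCII-deleted tumor, neither was called, and Rpl27 was not called without replicate 1 of LN of these mice either. Rpl27 has 35.9% own windows, and Rps19bp1 has 100%.

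In control mice, where lymphatic MHCII is intact, the tissue comparison with TMM called 18 of 81 genes lower in tumor and 0 higher, while with pan-T cell scaling 3 were lower and 1 higher (edgeR). The background with TMM was 16.1% lower and 22.8% higher. With pan-T cell scaling it was 9.5% lower and 25.6% higher. At an unadjusted p under 0.05, 1 gene was higher, and DESeq2 gave 17 lower and 1 higher. The members called lower were 22.2% of the 81, close to the background of 16.1%. The median log2 fold change was -0.28, against 0.08 over all tested genes. At 50 CPM or more, it was -0.02 over all tested genes (1099 of 4597 lower). Other genes with transcripts under 1000 bases had 0.2 at that level, and ribosomal protein genes -0.38 (14 of 32 lower). Relative to the median of all genes, the ribosomal protein genes lay at -0.36 with TMM and at -0.35 with pan-T cell scaling, values that a change of scaling can hardly move apart. Small subunit genes were lower in 11 of 31 cases (median -0.41) and large subunit genes in 6 of 46 (median -0.23). The groups did not overlap for 20 of the 81 genes on the lower side (24.0% of all tested genes) and for 4 on the higher side (29.0%). The lower calls fell to 8 without LN control replicate 2, to 6 without LN control replicate 3 and to 7 without tumor control replicate 2.

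Rps3a1, a small subunit protein of the mRNA exit side, had 99.3, 78.4 and 95.4 CPM in control tumor against 130, 158 and 173 CPM in LN, with no overlap. Its log2 fold change was -0.75 ± 0.14 (SE, adjusted p = 0.002, edgeR). Rpl4 had 847, 747 and 763 CPM in tumor against 1110, 1200 and 1330 CPM in LN (log2 fold change -0.63 ± 0.09, adjusted p = 0.00067, edgeR). Every tumor library lay well below every LN library for both genes, which were also called with pan-T cell scaling, as was Rps19. Rps19 had 168, 129 and 153 CPM in tumor against 187, 255 and 270 CPM in LN (log2 fold change -0.66 ± 0.16, adjusted p = 0.0097, edgeR). Rps18 had 62.6, 44 and 53.8 CPM in tumor against 71.8, 84.5 and 97.9 CPM in LN (log2 fold change -0.66 ± 0.17, adjusted p = 0.0115, edgeR). Rps7, of the small subunit, had 35.9, 30.9 and 31.9 CPM in tumor against 42, 53.1 and 60.2 CPM in LN (log2 fold change -0.65 ± 0.17, adjusted p = 0.0114, edgeR). The groups did not overlap for these 3 genes, and Rps18 and Rps7 were not called with pan-T cell scaling (adjusted p = 0.0534 and 0.0579, edgeR). Rps20 and Rps4x, an X-linked small subunit protein, had log2 fold changes of -0.63 ± 0.17 and -0.54 ± 0.17 (adjusted p = 0.0144 and 0.0272, edgeR). The calls of both were lost without LN control replicate 3 or tumor control replicate 2, and that of Rps4x also without LN control replicate 2. With pan-T cell scaling neither was called (adjusted p = 0.0536 for Rps20 and 0.112 for Rps4x, edgeR).

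Across genotypes, 14 genes were called lower in tumor with TMM in both tissue comparisons. With pan-T cell scaling none of the 81 was lower in MHCII-deleted mice. The groups compared share no libraries, but both comparisons come from 1 fit over all 10 libraries. That fit shares its scaling and its estimate of spread, so the calls are not independent. The 14 genes were 50% of the 28 in MHCII-deleted mice and 77.8% of the 18 in control mice. Over all tested genes, 1388 were lower in both, which is 49.7% of the 2792 lower in MHCII-deleted mice and 62% of the 2237 lower in control mice. Among them were Rpl4, Rpl7 and Rpl13 of the large subunit, and Rps2, Rps3a1, Rps4x, Rps7, Rps9, Rps18, Rps19 and Rps20 of the small subunit.

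**Figure D4:**
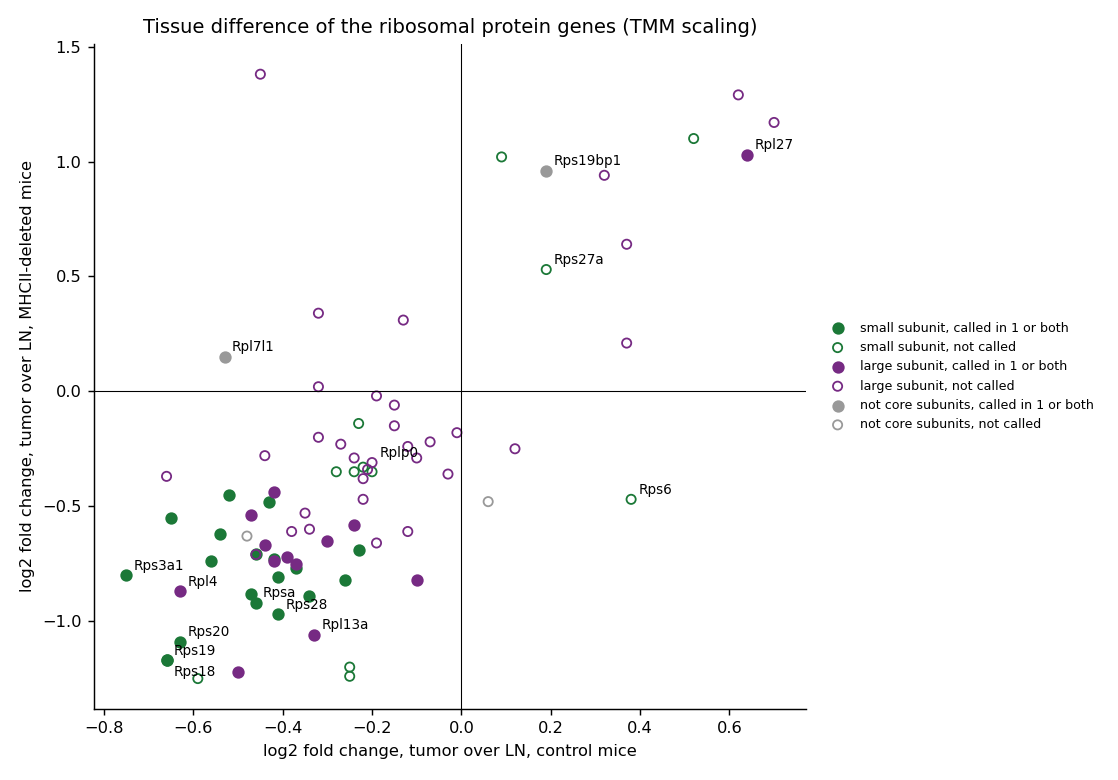
Log2 fold change of tumor over LN (TMM scaling) in MHCII-deleted mice against that in control mice, 1 point per ribosomal protein gene. Most points lie below 0 on both axes (medians -0.47 and -0.28), while with pan-T cell scaling the median is 0.76 in MHCII-deleted mice and -0.14 in control mice.

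The comparison of genotypes in tumor asks whether loss of lymphatic MHCII moves with ribosomal protein mRNA levels in tumor Tregs. With TMM, 6 of the 81 genes were lower and 2 higher in MHCII-deleted mice, while pan-T cell scaling gave 65 higher and 0 lower (edgeR). The background with TMM was 13.7% lower and 15.0% higher (28.7% in either direction), against 7.41% and 2.47% of the members. With pan-T cell scaling, 0.359% of all tested genes were lower and 66.9% higher. The members' median log2 fold change was -0.18, against 0.10 over all tested genes, and with pan-T cell scaling it was 0.94 against 1.21. With TMM at 50 CPM or more, the median was -0.12 over all tested genes (1348 of 4597 lower). At that level it was -0.17 for other genes with transcripts under 1000 bases (118 of 330 lower) and -0.36 for the members (6 of 32 lower). Relative to all genes, the members lay at -0.28 with TMM and at -0.27 with pan-T cell scaling, values that a change of scaling can hardly move apart. The groups did not overlap for 23 genes on the lower side (24.0% of all tested genes) and for 9 on the higher side (29.6%). Pan-T cell markers were lower in MHCII-deleted tumor for 22 of 24 and melanoma markers higher for 12 of 15, and their part in these counts was not tested. The lower calls ranged from 2 without replicate 2 of the MHCII-deleted tumor libraries to 10 without replicate 2 of the control ones.

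Rpl13a had 182 and 138 CPM in MHCII-deleted tumor against 287, 257 and 297 CPM in control tumor, with no overlap (log2 fold change -0.81 ± 0.17, SE, adjusted p = 0.00677, edgeR). This call held in each fit that left out 1 library, but the gene stood at a log2 fold change of 0.31 with pan-T cell scaling. Rpl37a, a zinc-binding large subunit protein, had 70.5 and 53.8 CPM in MHCII-deleted tumor against 106, 90.3 and 115 CPM in control tumor (log2 fold change -0.74 ± 0.18, adjusted p = 0.0144, edgeR). Rps14 had 277 and 247 CPM against 476, 322 and 409 CPM (log2 fold change -0.62 ± 0.17, adjusted p = 0.0239, edgeR). Rps15a had 54.1 and 43.1 CPM against 82.4, 61.6 and 79.2 CPM (log2 fold change -0.61 ± 0.19, adjusted p = 0.039, edgeR). Rps9, which bears on decoding accuracy, had 270 and 221 CPM against 355, 302 and 338 CPM (log2 fold change -0.43 ± 0.14, adjusted p = 0.0416, edgeR). None of these genes overlapped between the groups, and each of these last 4 calls was lost in at least 1 fit without a library, among them that without replicate 2 of MHCII-deleted tumor.

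The genes called higher in MHCII-deleted tumor belong to no core subunit. Rps19bp1 had 35.4 and 24.6 CPM there against 14.6, 16.9 and 19.5 CPM in control tumor (log2 fold change 0.82 ± 0.22, SE, adjusted p = 0.0208, edgeR). Rpl7l1, a paralog of Rpl7 that acts in ribosome assembly, had 164 and 130 CPM in MHCII-deleted tumor against 118, 103 and 102 CPM in control tumor (log2 fold change 0.45 ± 0.13, adjusted p = 0.0329, edgeR). The groups did not overlap for either gene. In control mice Rpl7l1 was lower in tumor than in LN, where it had 153, 149 and 164 CPM (log2 fold change -0.53 ± 0.12, adjusted p = 0.007, edgeR), and in MHCII-deleted mice it had 145 and 120 CPM in LN and was not called (adjusted p = 0.445, edgeR). The call of Rps19bp1 in tumor was lost without replicate 1 of either tumor group, and that of Rpl7l1 without 4 of the 10 libraries in turn.

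In LN, no ribosomal protein gene was called between MHCII-deleted and control mice by edgeR or DESeq2, and 0 had an unadjusted p under 0.05. The background was 1.07% of tested genes higher and 0.0359% lower, 1.11% in either direction. The median log2 fold change was -0.03, against 0 over all tested genes. The lowest p was that of Rps6, at 4.6 and 4.38 CPM in MHCII-deleted LN against 2.49, 2.56 and 2.97 CPM in control LN (log2 fold change 0.75 ± 0.41, adjusted p = 0.729, edgeR). Its groups did not overlap, and it has 15.4% own windows. For the difference of the deletion effect between tumor and LN, 0 genes were called with TMM, 2 were higher and 4 lower at an unadjusted p under 0.05, and DESeq2 called 1 higher and 1 lower. The background with TMM was 4.14% higher and 6.57% lower. With pan-T cell scaling 36 were called higher, in a fit that called 44.5% of all tested genes higher. Rpl7l1 came closest (log2 difference 0.68 ± 0.19, adjusted p = 0.0511, edgeR), and Rpl13a had a log2 difference of -0.73 ± 0.23 (adjusted p = 0.0764, edgeR).

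**Figure D5:**
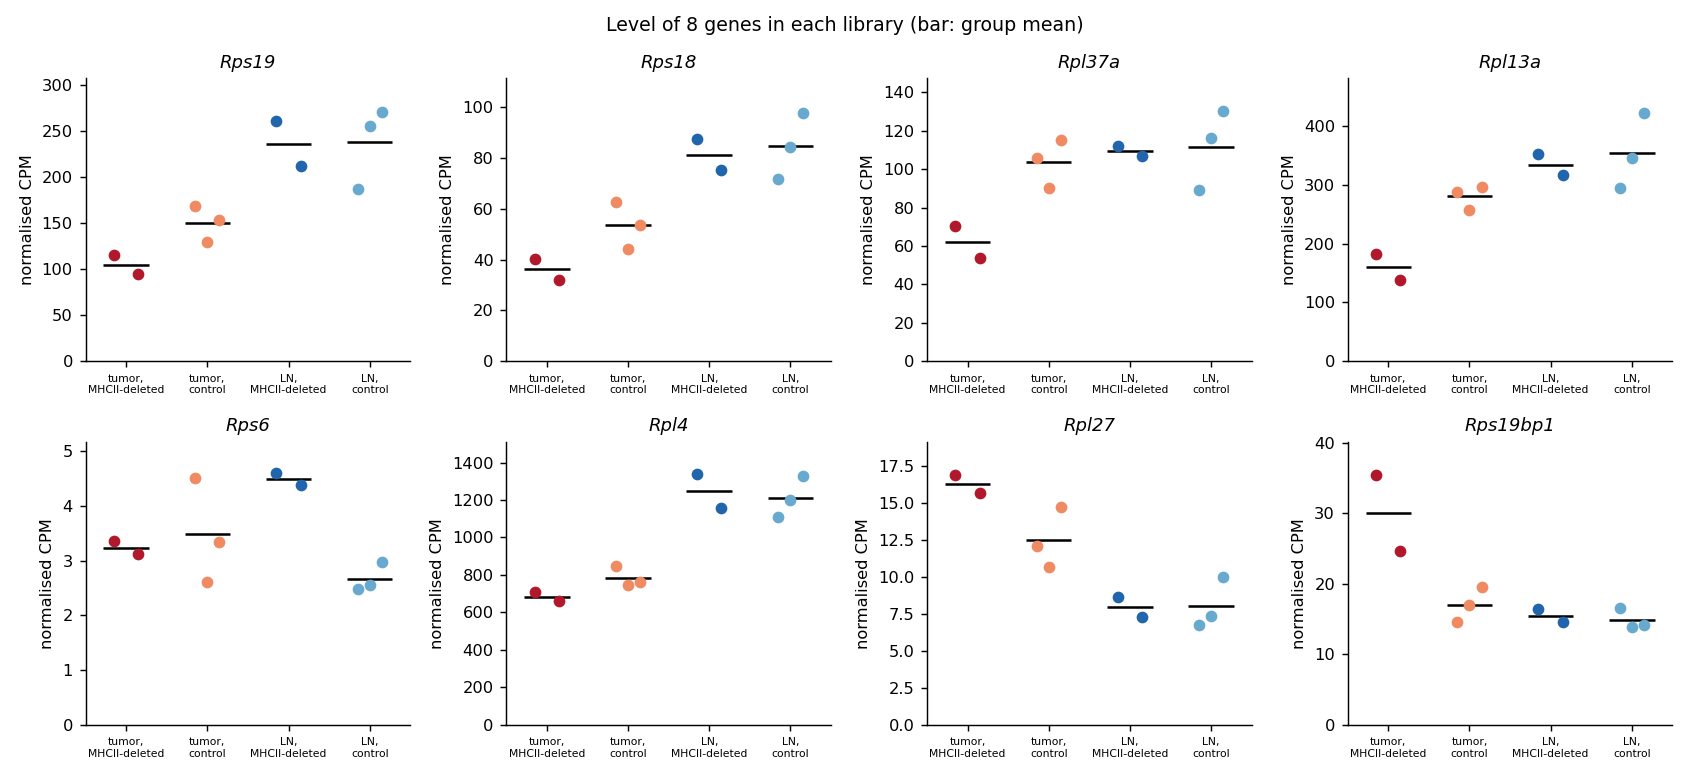
Normalised CPM (TMM) per library of ribosomal protein genes named in the text, 1 point per library and a bar at the group mean. Rpl13a is lowest in MHCII-deleted tumor (182 and 138 CPM), and Rps19bp1 is highest there (35.4 and 24.6 CPM).

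Among genes of special roles, Rps27a, made as a fusion with ubiquitin, had 5.38 and 5.18 CPM in MHCII-deleted tumor, 5.83, 4.66 and 4.4 CPM in control tumor, 4.09 and 3.22 CPM in MHCII-deleted LN and 3.7, 5.31 and 4.01 CPM in control LN. It passed no test with TMM, although its MHCII-deleted tumor values lay above its MHCII-deleted LN values. With pan-T cell scaling it was called higher in MHCII-deleted tumor than in MHCII-deleted LN (log2 fold change 1.75, adjusted p = 0.00384, edgeR) and than in control tumor (1.2, adjusted p = 0.0137, edgeR). Rpl38, which in mouse embryos bears on the translation of Hox mRNAs, had 16.6 to 27.1 CPM over all libraries, and Rpl10a 3.39 to 4.69 CPM. Neither was called with TMM in any comparison, although the MHCII-deleted tumor values of both lay below those of MHCII-deleted LN. With pan-T cell scaling Rpl38 was called higher in MHCII-deleted tumor than in MHCII-deleted LN (log2 fold change 0.99, adjusted p = 0.0127, edgeR) and than in control tumor (0.85, adjusted p = 0.0147, edgeR). Rpl10a was called higher there than in control tumor (1.04, adjusted p = 0.0298, edgeR). Rpl22 and Rpl22l1 are paralogs of which Rpl22 represses Rpl22l1 in mice. Rpl22 had 72.8, 55.7 and 70.3 CPM in control tumor against 76.9, 95.3 and 103 CPM in LN (log2 fold change -0.47 ± 0.17, SE, adjusted p = 0.0483, edgeR). That call was lost without any of 7 libraries in turn, and also with pan-T cell scaling. Rpl22l1 had 21.9, 14.5 and 20.8 CPM in tumor against 21.6, 26.6 and 31.1 CPM in LN, and did not pass (adjusted p = 0.0966, edgeR).

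Other genes of the translation machinery are given by lists made by function, all with TMM and for tumor against LN. Pan-T cell scaling, not given for these lists, moved the median of all tested genes to 1.28 in MHCII-deleted mice and to 0.21 in control mice. Over all tested genes, 24.3% were called higher and 20.1% lower in MHCII-deleted tumor, and 22.8% higher and 16.1% lower in control tumor, and the counts below stand beside these shares. Of 19 translation factors with TOP transcripts, 7 were lower and 1 higher in MHCII-deleted tumor (median log2 fold change -0.32), and 7 were lower and 0 higher in control tumor (median -0.23). Eef1a1, which delivers tRNAs, had 854 and 728 CPM in tumor against 1390 and 1240 CPM in MHCII-deleted LN (log2 fold change -0.73, adjusted p = 0.000739, edgeR). Of 40 ribosome biogenesis genes, 11 were lower and 4 higher in MHCII-deleted tumor, and 24 were lower and 0 higher in control tumor (medians -0.17 and -0.55). Dkc1, which modifies rRNA, had 54.6, 42.8 and 44.3 CPM in tumor against 119, 127 and 128 CPM in control LN (log2 fold change -1.4, adjusted p = 2.52e-05, edgeR). Of 78 mitochondrial ribosomal protein genes, 26 were higher and 0 lower in MHCII-deleted tumor (median 0.3), and 4 were higher and 11 lower in control tumor (median -0.06). Of 26 genes of translation control by mTORC1 and Myc, 8 were higher and 8 lower in MHCII-deleted tumor, and 6 were higher and 7 lower in control tumor. The 4 with the lowest p in MHCII-deleted mice were Eif4ebp1, Pdcd4, Rps6ka1 and Mxd4. Myc, which drives ribosome production, was among the first 4 in control mice only. In MHCII-deleted mice, where it was also called, Myc had 85 and 103 CPM in tumor against 179 and 140 CPM in LN (log2 fold change -0.76, adjusted p = 0.0113, edgeR). Its values in control mice are not given here. Of 7 subunit genes outside the name rule, 2 were higher and 0 lower in tumor in each genotype, among them Rps27l, a p53 target, with 155 and 105 CPM in tumor against 57.1 and 51.5 CPM in MHCII-deleted LN (log2 fold change 1.26, adjusted p = 0.000708, edgeR).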

How the data were processed

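RNA of sorted Tregs was amplified from 1 ng with a SMARTer Ultra Low kit and sequenced as single reads of 50 bases, per the labels' protocols. The authors deposited raw read counts per gene. CASAVA 1.8.2, STAR 2.4, featureCounts 1.4.6 and GRCm38 are named per the submitters' processing notes. The annotation release, the strand setting and the handling of multi-mapping reads are not given in the sources used here. Counts were filtered with filterByExpr (minimum count 10), scaled by TMM and tested over all 13920 genes and 10 libraries with edgeR 4.0.16 (quasi-likelihood, group means, Benjamini-Hochberg, threshold 0.05) in R 4.3.3. Each SE is the size of the log2 fold change divided by the root of its F statistic. Levels per kilobase use annotated transcripts. A gene at 0 has a floor of 3 counts, 0.0839 to 0.105 CPM by library, for counting error only. Code was tested on simulated data. Alternatives were DESeq2 1.42.0, limma 3.58.1 with voom, RLE size factors, scaling to pan-T cell genes, no filter, only the groups compared, the replicate number as a block, and each library left out. TMM from short genes was added after seeing the data. Genes named were the 8 with the largest called, non-overlapping changes per direction, the 5 highest and 5 lowest levels per kilobase, a fixed set of special roles and, of other lists, up to 4 called genes by p. Rps27, Rps27rt and the printed transcript starts were chosen after their values were seen. The members and lists were chosen with earlier results of these data known. Sequences are from RefSeq (GRCm38.p6) and GENCODE transcripts. Some genes that the rule names are not reported here.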

Additional observations from a re-analysis of the deposited data

Results flagged for a closer look

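The effect of MHCII deletion differed between tumor and LN by the interaction test (edgeR's quasi-likelihood test, adjusted p under 0.05, TMM) for 11 of 78 mitochondrial ribosomal protein genes, 3 of 40 ribosome biogenesis genes, 5 of 26 genes of translation control and 1 of 19 translation factors, and for 0 of the 81 ribosomal protein genes (6 at an unadjusted p under 0.05, and 2 called by DESeq2). Over all tested genes, 10.7% were called. The 14 of them that the rule for named genes takes are given here. The log2 difference, tumor effect minus LN effect, was 1.24 for Mrpl51, 1.08 for Mrps25, 1.03 for Mrpl12, 1.03 for Mrps27 and 0.88 for Mrpl38, all mitochondrial ribosomal proteins. It was 1.38 for Wdr12 and 0.9 for Nop2, which act in large subunit assembly, and -0.62 for Ubtf, a factor of rRNA transcription. It was 1.75 for Eif4ebp1, an mTORC1 substrate, 0.8 for the S6 kinase gene Rps6kb1, 0.99 for Larp4, -0.61 for Rps6ka1 and -0.92 for Mxd4, a partner of Max. For Eif3l, a subunit of an initiation factor, it was 0.74. Pan-T cell scaling, not given for these genes, moved the median difference of all tested genes from -0.01 to 1.07. That fit called 44.5% of all tested genes higher and 0.151% lower. The negative differences of Ubtf, Rps6ka1 and Mxd4 with TMM are smaller in size than this shift. Melanoma markers summed to 19400 and 23700 CPM in MHCII-deleted tumor and to 4930 to 9580 CPM in control tumor, and their part in these differences was not tested.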

How the results depend on the processing

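Changes of direction were counted only for named genes called in the main fit or in the changed one. Each of those came under the pan-T cell scaling, which raised the median of all tested genes by over 1 in comparisons with MHCII-deleted tumor. The pan-T cell scaling gave 44 higher and 0 lower calls for tumor against LN in MHCII-deleted mice, and 1 and 3 in control mice. It gave 65 and 0 for deletion in tumor, and 36 higher for the difference of deletion effects. The medians were 0.76, -0.14, 0.94 and 0.94. Of all tested genes, the same fits called 64.8%, 25.6%, 66.9% and 44.5% higher. Log2 fold changes that turned positive under it included, for tumor against LN in MHCII-deleted mice, Rps19 0.06, Rps18 0.06, Rps20 0.14, Rpl13a 0.17, Rps28 0.26, Rpsa 0.3, Rps14 0.34, Rplp2 0.58, Rpl22 0.7, Rplp0 0.92, Rplp1 0.94 and Rpl38 0.99. For deletion in tumor they included Rpl13a 0.31, Rpl37a 0.38, Rps14 0.5, Rps15a 0.51, Rps9 0.69, Rpsa 0.74, Rplp2 0.8, Rpl38 0.85, Rpl22l1 0.91, Rplp1 0.92, Rpl22 0.92, Rplp0 0.99 and Rpl10a 1.04.

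In MHCII-deleted mice, the 28 lower calls for tumor against LN became 21 with RLE, 24 with DESeq2 and 19 with voom. They became 21 with only the groups compared and 39 with TMM from short genes. Voom lost the calls of Rplp2 and Rps28 there (adjusted p = 0.0602 and 0.0945, limma). For tumor against LN in control mice, RLE, DESeq2 and voom each gave 1 higher call, voom gave 10 lower and TMM from short genes 33 lower. For deletion in tumor, voom gave 0 higher and 1 lower, only the groups compared gave 0 higher, and TMM from short genes gave 3 lower. For the difference of deletion effects, RLE gave 1 higher, and DESeq2 1 higher and 1 lower. The cause was not tested. Same-numbered libraries correlated at -0.15 to 0.05, so the numbers were not taken as pairs; the replicate block gave 2 higher and 26 lower in MHCII-deleted tissue, 0 and 17 in control tissue, 2 and 3 for deletion in tumor and 1 higher for the difference.

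Leaving out 1 library at a time gave 0 to 2 higher and 13 to 32 lower in MHCII-deleted tissue, 0 to 1 and 6 to 26 in control tissue, 0 to 3 and 2 to 10 for deletion in tumor, and 0 to 1 in each direction for the difference. Medians ranged from -0.66 to -0.34, -0.4 to -0.19, -0.36 to -0.05, -0.15 to 0.07 for deletion in LN and -0.33 to -0.01 for the difference. Summed CPM ranged from 5400 to 6490, 6870 to 7740, 8670 to 9920 and 8860 to 10200 in tumor MHCII-deleted, tumor control, LN MHCII-deleted and LN control. Of the values for named genes, 502 kept their side of the threshold, 44 lost the call and 4 gained it. Of the values called in either fit, 0 turned direction, and turns of values called in neither were not counted. Groups of 2 and 3 libraries limit precision, and counts of genes under 10 CPM, 25 of the 81, carry the most counting error.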
